A study of Mus musculus with 14 samples.

Results

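Ribosome biogenesis factors are the proteins that make and assemble ribosomes without being part of the finished ribosome. They were followed through a set of 14 RNA-seq libraries from mouse embryos, as the genes whose symbols match a fixed pattern of names (the Nop, Nol, Utp and Rrp series, Imp3 and Imp4, and single names such as Dkc1, Bop1 and Ncl). The pattern matched 52 of the 23697 rows of the table. It selects by name only, but it was chosen with earlier results of these data known. By role, 3 belong to box C/D and 4 to box H/ACA ribonucleoproteins, 25 act on the small ribosomal subunit, 17 on the large subunit, and 3 are other nucleolar proteins. Of these, 51 reached 1 FPKM (fragments scaled by transcript length and by all mapped fragments) in at least 2 libraries and were tested, and Fbl did not.

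The study compared embryos made by in vitro fertilisation (IVF) with clones made by nuclear transfer from somatic cells (SCNT), where a body cell's nucleus is put into an oocyte whose own chromosomes were removed. The 7 groups held 2 libraries each, and where 2 values are given for a group below they are its replicates 1 and 2. Donor cells were cumulus cells, which surround the oocyte, labelled as F1 hybrids of C57BL/6J and CAST/EiJ and collected as pools of about 1000, although the protocol text names BDF1 females as their source. IVF embryos came from C57BL/6J oocytes and CAST/EiJ sperm, in pools of 32 and 31 at the 1-cell and 25 and 25 at the 2-cell stage. SCNT embryos held such donor nuclei in B6D2F1 oocytes, in pools of 36 and 36 at the 1-cell and 40 and 40 at the 2-cell stage. The other 2 groups, of 25 embryos a library, were SCNT 2-cell embryos labelled as overexpressing Kdm4d or a mutant form of it. The Kdm4d enzyme removes methyl groups from lysine 9 of histone H3. Neither the mutation nor how the gene was overexpressed is given in these sources. Oocyte strain differs between all SCNT and all IVF embryos, so method and oocyte strain cannot be told apart. Nothing in the labels says that replicates were separate experiments, and p-values measure only the spread between these libraries.

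In the nucleolus, RNA polymerase I transcribes a long precursor that holds the 18S, 5.8S and 28S ribosomal RNAs. Box C/D particles guide methylation of its riboses and box H/ACA particles guide conversion of uridines to pseudouridines, while the small subunit processome, built around the U3 small nucleolar RNA, cuts out and folds the 18S part and other factors mature the large subunit. A mouse oocyte carries a store of ribosomes and messenger RNAs, and the embryo's own genome becomes active mainly at the 2-cell stage, when nucleoli begin to form from their precursor bodies. Most roles named below were worked out in yeast and in human cells.

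Promoter sequence from RefSeq (GRCm38.p6) was set beside the values: the 250 bases before the start are shown for the 4 members with the largest fall in SCNT against IVF 2-cell embryos, for Nhp2 of the box H/ACA particles, and for Rrp1, which was higher in SCNT embryos. Rrs1, whose fall lay between those of Utp3 and Nhp2, and Nol6, which had the largest rise, had no promoter entry. Capitals mark the E-box CACGTG, the letters bound by Myc and its relatives, and CCGGAAG, a core bound by ETS factors, each searched on both strands, where the motifs do not overlap one another. The 6 windows are, in order, chr1:78658190-78658439, chr8:107056627-107056876, chr9:56937250-56937499, chr5:88554212-88554461 and chr11:51619523-51619772 on the plus strand, and chr10:78413044-78413293 on the minus strand.
Utp14b promoter: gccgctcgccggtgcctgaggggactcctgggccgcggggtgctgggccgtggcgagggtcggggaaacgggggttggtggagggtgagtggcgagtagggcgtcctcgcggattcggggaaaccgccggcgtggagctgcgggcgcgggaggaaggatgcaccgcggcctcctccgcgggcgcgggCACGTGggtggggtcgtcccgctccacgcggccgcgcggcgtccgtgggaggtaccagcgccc
Nip7 promoter: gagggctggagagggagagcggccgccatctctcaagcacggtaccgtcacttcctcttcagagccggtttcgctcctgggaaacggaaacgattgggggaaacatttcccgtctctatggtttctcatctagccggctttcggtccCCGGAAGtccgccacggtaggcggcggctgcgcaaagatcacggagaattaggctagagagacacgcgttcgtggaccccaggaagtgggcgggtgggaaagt
Imp3 promoter: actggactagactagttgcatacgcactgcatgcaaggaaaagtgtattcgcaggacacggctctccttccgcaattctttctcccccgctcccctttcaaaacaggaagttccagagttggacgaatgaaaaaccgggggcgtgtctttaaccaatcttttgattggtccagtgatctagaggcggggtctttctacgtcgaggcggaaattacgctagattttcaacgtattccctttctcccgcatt
Utp3 promoter: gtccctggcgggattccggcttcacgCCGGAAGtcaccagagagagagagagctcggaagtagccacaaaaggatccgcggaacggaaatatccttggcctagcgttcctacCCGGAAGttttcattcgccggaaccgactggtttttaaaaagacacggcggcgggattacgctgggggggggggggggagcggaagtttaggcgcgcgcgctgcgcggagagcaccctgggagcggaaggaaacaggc
Nhp2 promoter: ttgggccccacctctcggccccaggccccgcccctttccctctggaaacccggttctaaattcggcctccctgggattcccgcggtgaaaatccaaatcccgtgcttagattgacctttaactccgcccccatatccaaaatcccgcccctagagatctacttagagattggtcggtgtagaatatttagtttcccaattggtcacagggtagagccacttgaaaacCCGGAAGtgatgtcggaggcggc
Rrp1 promoter: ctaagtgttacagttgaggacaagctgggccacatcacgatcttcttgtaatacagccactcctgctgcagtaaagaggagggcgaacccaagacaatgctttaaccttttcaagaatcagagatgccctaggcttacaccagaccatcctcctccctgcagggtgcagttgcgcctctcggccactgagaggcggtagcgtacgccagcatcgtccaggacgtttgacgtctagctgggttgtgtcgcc

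Counted from the transcription start, with the base before it at -1, the E-box of Utp14b begins at -63. The letters CCGGAAG begin at -103 in Nip7, at -224 and -138 in Utp3, and at -23 in Nhp2. The Imp3 and Rrp1 stretches held none of the letters searched.

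The libraries differed in depth, quality and composition. Relative to the deepest library at 1, depth was 0.415 to 0.511 in the Kdm4d and mutant Kdm4d libraries, 0.586 in both donor libraries and at least 0.774 in the rest. The robust SD between replicates, over 6254 genes that averaged 5 FPKM or more, on the log2 scale, was 0.359 in Kdm4d and 0.371 in mutant libraries and 0.0925 to 0.182 elsewhere. FPKM sums were 182652 to 186930 in SCNT 2-cell, 235468 to 242405 in IVF 2-cell, 291122 to 309915 in Kdm4d and 233495 to 280170 in mutant libraries, and values were used without rescaling. Kdm4d was at 8880 and 2260 FPKM in its own libraries, 723 and 283 FPKM in the mutant libraries and at most 0.759 FPKM in every other library, which follows the labels. Summed over 10 cumulus markers, levels were 19210 to 24970 FPKM in donors, 1.19 to 1.91 in IVF 1-cell and 55.9 to 172 in the other embryo groups. The 10 oocyte markers summed to 2.08 to 2.57 FPKM in donors, none of them at 1 FPKM, and to at least 1004 in every embryo library. Shared letters limit 8 members, in which over 15% of the 50-base stretches of the transcript recur in other genes or lie in overlapping exons: Fbl (72.2%), Npm1 (40.9%), Nop56 (37.2%), Tsr1 (30.5%), Mrto4 (25.4%), Pes1 (22.6%), Rrp7a (21.5%) and Utp14a (15.4%), whose values are uncertain.

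Together the 52 genes made up 0.409% to 0.415% of the FPKM sum in donors, 0.491% and 0.514% in IVF 1-cell and 0.469% and 0.467% in SCNT 1-cell embryos. At the 2-cell stage they made up 1.57% and 1.53% in IVF, 1.01% and 0.926% in SCNT, 1.2% and 1.5% with Kdm4d, and 0.507% and 0.762% with its mutant form. Both IVF and both Kdm4d libraries thus lay above both SCNT and both mutant libraries. That order was the same without the 8 members of shared sequence, at 1.38% and 1.34% in IVF, 0.799% and 0.737% in SCNT, 1.03% and 1.28% with Kdm4d, and 0.403% and 0.615% with the mutant. The most abundant member was Npm1 in 1-cell embryos, with 18.8% to 22.4% of the members' sum, Nop10 in donors, with 15.7% and 16.7%, and Nhp2 in IVF 2-cell and Kdm4d embryos, with 9.36% to 10.9%. In pooled embryos, fewer transcripts of these genes per cell and more RNA of other genes cannot be told apart.

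**Figure D1:**
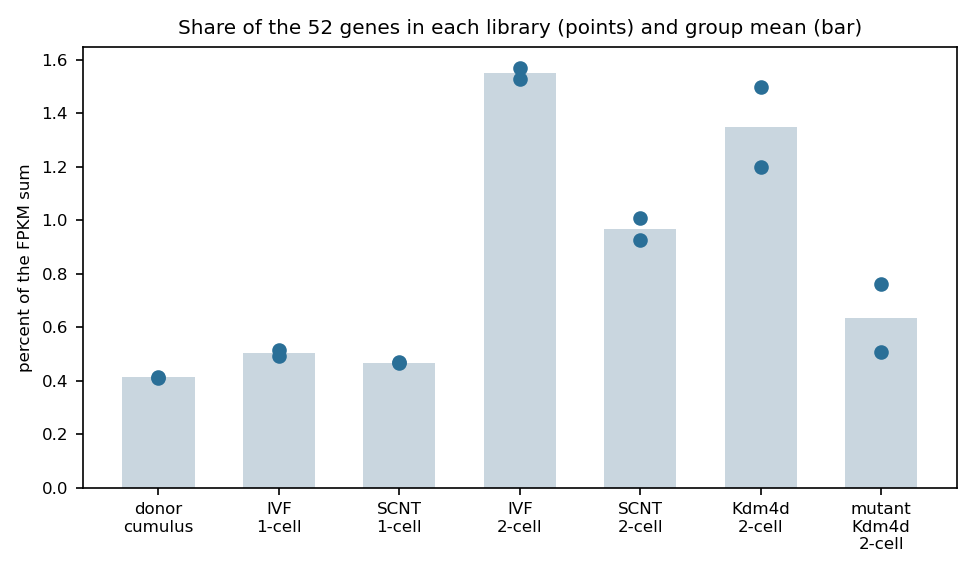
Share of the summed FPKM taken by the 52 genes, in percent, for each library (points) and as the group mean (bars), with 2 libraries per group. The share is near 0.4% to 0.5% in donor cells and 1-cell embryos, and at the 2-cell stage both IVF points (1.57% and 1.53%) and both Kdm4d points (1.2% and 1.5%) lie above the SCNT and mutant points.

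From the 1-cell to the 2-cell stage of IVF embryos, most of these genes rose. Of the 51 tested, 36 were higher and 6 lower at the 2-cell stage (limma on log2(FPKM + 1), Benjamini-Hochberg adjusted p under 0.05), which is 70.6% and 11.8%, against 30.4% and 37.2% of all 13450 genes tested. The members' median difference was 1.52 on the log2 scale and that of all genes was -0.06. Among a list of other ribosome biogenesis genes, such as helicases, exosome subunits and assembly factors, 81 of 109 rose and 15 fell. Box H/ACA genes rose in 4 of 4 cases and the tested box C/D genes in 2 of 2, with 19 of 25 small subunit and 10 of 17 large subunit genes. With FPKM sums made equal, 44 members rose and 2 fell, against 35.5% and 27.4% of all genes. Over the same stage the oocyte markers went from 8631 to 8738 FPKM in sum to 1715 to 1761, although Zp3 of that list rose (means of 21.56 and 55.98). The 6 markers of the 2-cell stage went from 3.26 to 4.48 to 2456 to 2576 FPKM. The part of these shifts in the members' levels was not tested.

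Nop16, a nucleolar protein of the large subunit pathway (chr13:54685552-54691435 in mm9, as for all gene positions below), was at 0.0481 and 0.129 FPKM in IVF 1-cell embryos and at 222 and 199 FPKM at the 2-cell stage. It had the largest rise of the members, 7.60 on the log2 scale (SE 0.21, adjusted p 3.3e-10). Utp23, a small subunit processome protein (chr15:51708987-51716168), went from 0.197 and 0.146 to 63.8 and 55.8 FPKM, a rise of 5.70 (SE 0.26, adjusted p 4.8e-09). Both genes were close to undetected in the fertilised egg and well expressed at the 2-cell stage.

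Nol11, one of the processome proteins also needed for transcription of the precursor (chr11:107027975-107050695), rose from 1.12 and 0.964 to 99.7 and 97.3 FPKM. Nop2, which methylates a cytosine of 28S RNA (chr6:125081901-125094771), rose from 0.259 and 0.27 to 43.9 and 40.8 FPKM. Nhp2, a core protein of box H/ACA particles (chr11:51433275-51437216), rose from 9.85 and 12.5 to 415 and 355 FPKM. Their differences were 5.61, 5.10 and 4.99 on the log2 scale, each above the spread between replicates.

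The 6 members that fell, Bms1, Utp18, Rrp1b, Nol10, Npm1 and Brix1, stood at 11.6 FPKM or more in every IVF 1-cell library. Bms1, a GTPase of the processome (chr6:118333399-118369435), went from 75.2 and 85.4 to 16.8 and 19 FPKM, a fall of 2.10 on the log2 scale (adjusted p 6.9e-07). Utp18, also of the processome (chr11:93720557-93747080), went from 74.4 and 72.4 to 33.3 and 33.1 FPKM. Npm1, the abundant nucleolar chaperone nucleophosmin, stood at 380 and 384 FPKM and then 229 and 229, with much of its sequence shared. Brix1, a large subunit assembly factor, was at 305 and 315 and then 219 and 207 FPKM, called at an adjusted p of 0.038 that was lost, with the sign turned to 0.05, under quantile normalization. Ncl, nucleolin, was at 83 and 83.7 and then 94.1 and 87.6 FPKM, with no call (adjusted p 0.49).

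Fbl, the methyltransferase of box C/D particles (chr7:28954767-28964288), was the member left untested. It was listed at 0 FPKM in 1 donor and 1 IVF 1-cell library and reached at most 0.927 FPKM, in a Kdm4d library. Its partners Nop56 and Nop58 were at 19.6 FPKM or more in every library. With 72.2% of its stretches found in 3 other genes, the Fbl value says little about the gene's level.

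In SCNT embryos, too, most of these genes were called higher at the 2-cell stage. From SCNT 1-cell to SCNT 2-cell embryos, 30 of 51 members rose and 11 fell, 58.8% and 21.6%, against 35.5% and 31.5% of all genes, with a members' median of 0.80 and an all-gene median of 0.06. The higher calls covered 15 of 25 small subunit, 9 of 17 large subunit, 3 of 4 box H/ACA and 2 of 2 box C/D genes. Nop16 again rose the most, from 1.12 and 0.913 to 71.9 and 62.3 FPKM, 5.08 on the log2 scale (SE 0.21, adjusted p 7.9e-09). Nhp2 went from 14 and 14.3 to 104 and 99.5 FPKM, a rise of 2.76. With equal FPKM sums, 34 members rose and 3 fell, against 50.2% and 17.5% of all genes. The oocyte markers went from 6730 to 7016 FPKM in sum at the 1-cell stage to 1004 to 1160 at the 2-cell stage, although Zp3 rose (means of 14.34 and 30.04). The 2-cell stage markers went from 7.12 to 8.19 to 324 to 333 FPKM in sum, through Obox6, Crxos1, Gm11517 and Usp17l5. Zscan4c and Zscan4d of that list fell (means of 0.2165 and 0.06951, and of 2.597 and 0.5628). The part of these markers in the members' levels was not tested.

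An interaction term compared the stage change of SCNT embryos with that of IVF embryos. The SCNT change was called below the IVF change for 27 members and above it for 1, that is 52.9% and 1.96%, against 12.6% and 16.5% of all genes. Without any single library of these groups, 21 to 23 members were below and none above. The members' median was -0.79 and that of all genes 0.17. By role, the SCNT change was called below for 14 of 25 small subunit, 10 of 17 large subunit, 2 of 4 box H/ACA and 0 of 2 box C/D genes. In the list of other ribosome biogenesis genes it was called below for 51 and above for 3 of 109.

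Utp14b, a retrotransposed copy of the X-linked Utp14a that mice need for spermatogenesis (chr1:78654400-78664176), had the largest such difference. It was at 3.43 and 2.82 FPKM in IVF 1-cell and 96.5 and 93.8 in IVF 2-cell embryos, but at 5.47 and 6.72 and then 15.8 and 15.2 FPKM in SCNT embryos. The interaction was -3.32 on the log2 scale (SE 0.26, adjusted p 1.8e-05). All SCNT values at the 2-cell stage lay far below the IVF pair. At the 1-cell stage they lay above it, by 0.78 on the log2 scale, without a call.

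Other members rose in IVF embryos and had no call in SCNT embryos. Nip7, a pre-60S assembly factor (chr8:109580777-109584828), was at 25.4 and 24.2 and then 104 and 96.9 FPKM in IVF embryos, and at 24.2 and 26 and then 21.5 and 16.7 FPKM in SCNT embryos. Imp3, a protein of the U3 particle (chr9:56785307-56786205), was at 9.56 and 7.51 and then 50 and 42.9 in IVF, and at 8.16 and 10.6 and then 9.72 and 8.68 FPKM in SCNT embryos. Their interactions were -2.36 and -2.34 (SE 0.32 and 0.29, adjusted p 0.00041 and 0.00024), and neither passed the test within SCNT embryos (adjusted p 0.16 and 0.94).

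Imp4, the partner of Imp3 in the U3 particle (chr1:34496674-34502592), went in opposite directions. It rose from 23.8 and 25.3 to 65.3 and 64.1 FPKM in IVF embryos and fell from 37.4 and 37.4 to 22.6 and 15.3 FPKM in SCNT embryos, with changes of 1.36 and -0.97. Pno1, which binds the 3' end of 18S RNA in the pre-40S particle, and Rrp8, a nucleolar methyltransferase-like protein of a silencing complex at ribosomal DNA, were likewise called higher in IVF and lower in SCNT embryos.

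Nol6, a processome protein (chr4:41061460-41071372), was the single member called with a larger SCNT change, among 7 members with a positive difference. It was at 1.21 and 1.14 and then 1.18 and 1.47 FPKM in IVF embryos, and at 1.64 and 1.76 and then 4.54 and 5.08 FPKM in SCNT embryos. The interaction was 1.01 (SE 0.31, adjusted p 0.029).

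**Figure D2:**
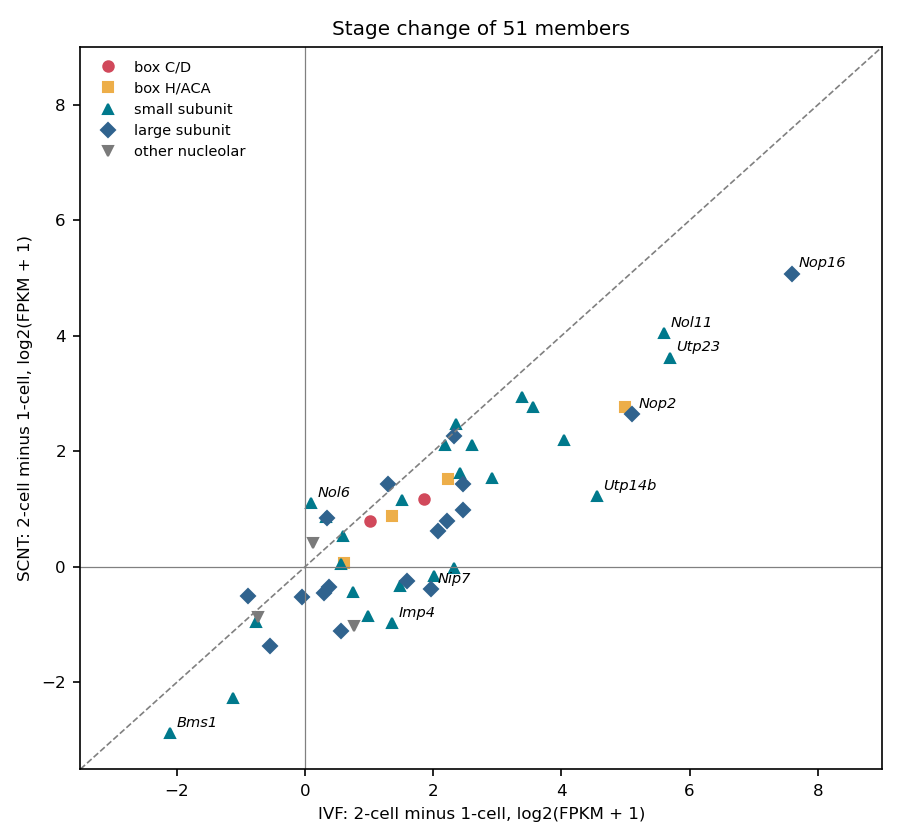
Change from the 1-cell to the 2-cell stage of the 51 tested members, in log2(FPKM + 1), in IVF embryos (x axis) and SCNT embryos (y axis), with marker shapes for roles and a dashed line of equal change. Most points lie below the line, with Nop16 at the far right (7.60 in IVF, 5.08 in SCNT), Utp14b farthest below it and Nol6 above it.

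At the 1-cell stage the number of members called different between the 2 kinds of embryo depended on the fit. Of 51 members 3 were higher and 1 lower in SCNT than in IVF 1-cell embryos, 5.88% and 1.96%, against 1.34% and 0.974% of all genes, and 15 had an unadjusted p under 0.05. Rrp9, a U3-specific protein, was at 0.552 and 0.623 FPKM in IVF and at 2.37 and 2.53 FPKM in SCNT embryos (1.12 on the log2 scale, adjusted p 0.031). Nop2 was at 0.259 and 0.27 and at 1.57 and 1.38 FPKM, and Nop16 at 0.0481 and 0.129 and at 1.12 and 0.913 FPKM. Both stood higher in SCNT embryos. Donor cells held more Nop2 and Nop16 than either kind of 1-cell embryo, at 8.42 and 7.38 FPKM of Nop2 and 37.7 and 32.4 of Nop16. Rrp9, at 2.13 and 2.16 FPKM in donors, was there above IVF but below SCNT 1-cell embryos. Of 10 cumulus markers, 5 reached 1 FPKM in SCNT 1-cell against 0 in IVF 1-cell embryos. Whether donor RNA carried over plays a part was not tested. Ncl was lower, at 52.1 and 54.6 against 83 and 83.7 FPKM (-0.63, adjusted p 0.047). No member was called when any single library of these groups was left out. With a spread estimated per group 16 were higher and 10 lower, against 18.9% and 11.4% of all genes, and with only these 2 groups fitted 9 were higher and 10 lower, against 12% and 8.72%.

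At the 2-cell stage SCNT embryos had lower levels of most of these genes than IVF embryos. Of 51 members 33 were lower and 2 higher in SCNT, 64.7% and 3.92%, against 16.6% and 30.3% of all genes. The members' median was -0.81 and that of all genes 0.23. Lower calls covered 16 of 25 small subunit, 11 of 17 large subunit, 3 of 4 box H/ACA and 1 of 2 box C/D genes. In the list of other ribosome biogenesis genes 67 of 109 were lower and 6 higher.

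The SCNT libraries had the smallest FPKM sums. Under quantile normalization, which moves the all-gene median to 0.00, the counts were 27 lower and 4 higher, against 20.2% and 20.8% of all genes. With equal FPKM sums, which move it to 0.48, they were 23 lower and 5 higher, against 11.1% and 45.8%. Nol8, Nop10, Npm1, Rrp9, Utp15 and Wdr43 lost their call under both scalings, and Bms1, Pes1, Rrp15 and Utp20 with equal sums. The 6 markers of the 2-cell stage summed to 2456 to 2576 FPKM in IVF and 324 to 333 FPKM in SCNT 2-cell embryos, and the oocyte markers to 1715 to 1761 and 1004 to 1160 FPKM. The oocyte sum was lower in SCNT mainly through Btg4 (means of 388.2 against 892.8) and Oosp1 (324.5 against 621.7). Gdf9, Bmp15, Zp1, Zp2, Nlrp5 and Ooep of that list were higher in SCNT. The part of these in the members' levels was not tested.

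Among small subunit factors, Utp14b had the largest difference, with 15.8 and 15.2 FPKM in SCNT against 96.5 and 93.8 in IVF 2-cell embryos (-2.54, SE 0.18, adjusted p 1.8e-06). Imp3 was at 9.72 and 8.68 against 50 and 42.9 FPKM (-2.22, SE 0.21, adjusted p 9.7e-06). Utp3, a processome protein also called SAS10 (chr5:88983508-88985108), was at 21.9 and 17.1 against 86.1 and 72.4 FPKM (-1.97, SE 0.18, adjusted p 8.4e-06). In none of the 3 did the groups overlap, and both SCNT values were far below both IVF values.

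The shift was not shared by every processome gene. Utp14a was at 44.9 and 37.3 FPKM in SCNT and 43.2 and 46 FPKM in IVF embryos, in contrast to its copy Utp14b, though its sequence is partly shared with another gene. Nol10 was at 21.5 and 21.8 against 21.8 and 23.6 FPKM, and Tsr1, a late pre-40S factor, at 37.9 and 33.2 against 35.4 and 30.1 FPKM. None of these passed the test (adjusted p 0.78, 0.79 and 0.57), but Tsr1 was called higher in SCNT under quantile normalization (0.46, adjusted p 0.021) and with equal sums (0.48, adjusted p 0.035). Nol6 was higher in SCNT embryos, at 4.54 and 5.08 against 1.18 and 1.47 FPKM (1.32, SE 0.22, adjusted p 0.0005).

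Among large subunit factors, Nip7 was at 21.5 and 16.7 FPKM in SCNT and 104 and 96.9 FPKM in IVF embryos (-2.34, SE 0.23, adjusted p 1.3e-05). Rrs1, which brings the 5S particle into the pre-60S subunit (chr1:9535489-9537536), was at 3.7 and 3.86 against 16.7 and 17.5 FPKM (-1.92, adjusted p 8.9e-06). Nop16 was at 71.9 and 62.3 against 222 and 199 FPKM (-1.64, SE 0.21, adjusted p 8.1e-05). Each pair of SCNT values was well below the IVF pair.

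The PeBoW complex, which Pes1, Bop1 and Wdr12 form and which matures 28S RNA, did not move as one. Bop1 was at 2.3 and 1.91 FPKM in SCNT against 7.38 and 5.67 in IVF embryos (-1.27, adjusted p 0.0018). Pes1 was at 7.26 and 7.78 against 12.1 and 10.7 FPKM (-0.54, adjusted p 0.0091), lost with equal FPKM sums. Wdr12 was at 12.7 and 8.6 against 9.84 and 8.52 FPKM, with overlapping groups and no call (adjusted p 0.51). Rrp1, another nucleolar large subunit factor (chr10:77863107-77875788), was higher in SCNT, at 20.9 and 21.1 against 13.2 and 13.6 FPKM (0.61, adjusted p 0.028).

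In the box H/ACA particles, Nhp2 was at 104 and 99.5 FPKM in SCNT and 415 and 355 FPKM in IVF embryos (-1.90, SE 0.25, adjusted p 0.0001). Dkc1, the pseudouridine synthase itself (chrX:72341193-72355115), was at 66.7 and 60.7 against 120 and 140 FPKM (-1.01, adjusted p 0.00098). Nop10 was at 159 and 148 against 233 and 254 FPKM (-0.66, adjusted p 0.0036), and Gar1 at 13.1 and 12.3 against 15.2 and 12.6 FPKM with no call (adjusted p 0.65). The 4 proteins of this particle thus ranged from a large difference to none that passed the test.

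In the box C/D particles, Nop58 (chr1:59741850-59768354) was lower in SCNT, at 94.9 and 98.2 against 241 and 210 FPKM (-1.21, SE 0.20, adjusted p 0.00054). Nop56 (chr2:130100148-130105049) was at 108 and 101 against 128 and 102 FPKM, with no call (adjusted p 0.68) and partly shared sequence. Ncl was at 74 and 68.4 against 94.1 and 87.6 FPKM (-0.35, adjusted p 0.069), and Npm1 at 166 and 146 against 229 and 229 FPKM (-0.56, adjusted p 0.027), a call that turned to 0.13 in the other direction without passing the test under quantile normalization. Rrp8 was lower, at 5.33 and 5.2 against 13.9 and 12.7 FPKM (-1.19, adjusted p 9.9e-05).

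The processome proteins that also act in transcription of the precursor included Utp15, Wdr43 and Wdr75 beside Nol11. Nol11 was at 40.6 and 32.2 FPKM in SCNT and 99.7 and 97.3 FPKM in IVF 2-cell embryos (-1.42, SE 0.22, adjusted p 0.0003). Wdr43 was at 61.5 and 46.1 against 99.6 and 95.9 FPKM (-0.86, adjusted p 0.0084), Utp15 at 22.3 and 21.1 against 42.7 and 35.4 FPKM (-0.81, adjusted p 0.024), and Wdr75 at 43.8 and 30.4 against 45.3 and 44.1 FPKM with no call (adjusted p 0.4). Only Nol11 of these 4 was called lower under every scaling run.

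The remaining members, given so that each is accounted for, lay between these extremes. Imp4 was at 22.6 and 15.3 FPKM in SCNT against 65.3 and 64.1 FPKM in IVF 2-cell embryos (-1.74), Utp11l of the processome at 60.7 and 59 against 194 and 187 FPKM (-1.65), and Utp23 at 22.8 and 17.5 against 63.8 and 55.8 FPKM (-1.53). Emg1 was at 87.4 and 85.3 against 174 and 177 FPKM (-1.02). Utp18, Rrp9, Bms1, Utp20, Pno1 and Rrp7a were called lower too, with differences from -1.57 to -0.63, and Utp6, Nop14, Rrp12 and Rrp36 had no call, with differences from -0.52 to 0.29.

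In the large subunit set, Brix1 was at 78.2 and 69.8 FPKM in SCNT against 219 and 207 FPKM in IVF 2-cell embryos (-1.51, SE 0.21, adjusted p 0.00015). Ebna1bp2, a nucleolar pre-60S protein, was at 31.2 and 22.3 against 85 and 74.9 FPKM (-1.56), and Nop2 at 15.6 and 13.3 against 43.9 and 40.8 FPKM (-1.49). Nol12, Rrp15 and Nol8 were called lower as well, with differences of -1.32, -1.06 and -0.71. Nol9, a polynucleotide kinase that acts on precursors of 28S RNA, was at 22.4 and 17.1 against 27.9 and 28.7 FPKM with no call (adjusted p 0.12). Mrto4, Ftsj3 and Rrp1b had no call either, at differences of 0.34, -0.57 and 0.52, although Mrto4 was called higher under quantile normalization (adjusted p 0.045) and with equal sums (0.015), and Rrp1b with equal sums (0.013).

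Outside the named set, the other ribosome biogenesis genes with the largest falls were Znhit6, a box C/D assembly factor, with group means of 15 and 87.3 FPKM (-2.46, adjusted p 1.7e-05), and Zfp622, whose yeast relative Rei1 matures the large subunit, at 11.4 and 63.2 FPKM (-2.37, adjusted p 1e-06). The largest rises were in Eftud1, a GTPase that releases a late large subunit factor, at 3.5 against 0.876 FPKM (1.21, adjusted p 0.0029), and Ruvbl2, an ATPase of the particle-assembling R2TP complex, at 15.9 against 7.75 FPKM (0.95, adjusted p 0.025).

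**Figure D3:**
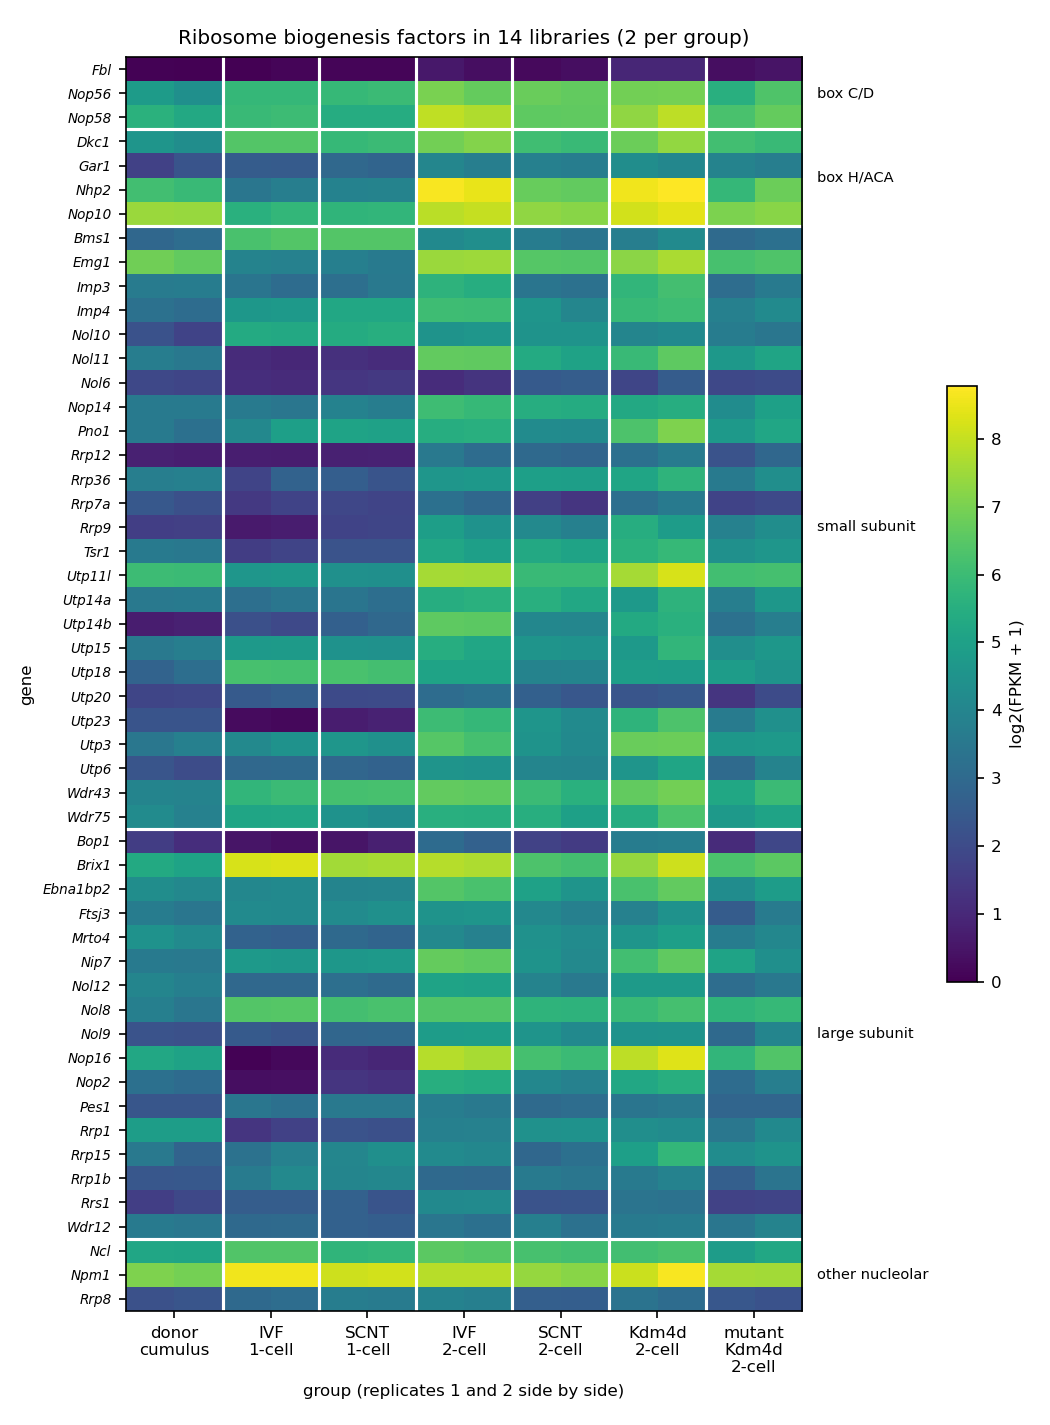
Level of the 52 genes, as log2(FPKM + 1) by colour, in the 14 libraries, with replicates side by side, groups in columns and genes in rows ordered by role. The IVF 2-cell and Kdm4d columns are the brightest for many genes, such as Nhp2 (355 to 436 FPKM in these 4 libraries), and Fbl is dark throughout.

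SCNT embryos that overexpressed Kdm4d had higher levels of most of these genes than plain SCNT embryos. Of 51 members 31 were higher and 0 lower by limma, 60.8% and 0%, against 21% and 18.5% of all genes, with a median of 0.99 beside an all-gene median of -0.02. At an unadjusted p under 0.05, 35 were higher and 1 lower. Higher calls covered 16 of 25 small subunit, 9 of 17 large subunit, 3 of 4 box H/ACA and 1 of 2 box C/D genes, and 66 of 109 other ribosome biogenesis genes. The counts changed with scaling. Under quantile normalization 21 were higher and 5 lower, against 17.2% and 19.2% of all genes, with a members' median of 0.35 and an all-gene median of -0.01. With equal sums 16 were higher and 7 lower, against 8.59% and 43.7%, with medians of 0.30 and -0.46. Of all calls in the table, 53.2% were higher as deposited, 47.4% under quantile normalization and 16.4% with equal sums. Markers of the 2-cell stage summed to 1874 to 3045 FPKM in Kdm4d against 324 to 333 in plain SCNT embryos. Oocyte markers summed to 2091 to 2802 against 1004 to 1160. That was mainly through Oosp1 (means of 1073 against 324.5) and Btg4 (999.4 against 388.2), while Bmp15, Zp1, Zp2, Nlrp5 and Ooep were lower. Cumulus markers summed to 118 to 172 against 55.9 to 58.6 FPKM. Of these only Gja1 (126.6 against 35.06) and Tnfaip6 (10.25 against 3.316) were higher, and the rest were lower. The part of these markers in the result was not tested.

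Imp3 was at 53.8 and 70.7 FPKM in Kdm4d against 9.72 and 8.68 FPKM in plain SCNT embryos (2.62, SE 0.21, adjusted p 8e-06). Pno1 (chr11:17103203-17111592) was at 80 and 134 against 17.8 and 17.4 FPKM (2.50, SE 0.29, adjusted p 6.3e-05). Utp3 was at 107 and 112 against 21.9 and 17.1 FPKM (2.44, SE 0.18, adjusted p 6.1e-06). In all 3 both Kdm4d libraries lay several times above both SCNT libraries.

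Large subunit genes followed. Rrp15, a pre-60S factor (chr1:188544965-188573237), was at 30.3 and 55.3 against 6.61 and 8.33 FPKM (2.32), Bop1 at 11.8 and 12.4 against 2.3 and 1.91 FPKM (2.08), and Nip7 at 69 and 98.5 against 21.5 and 16.7 FPKM (2.06). Nhp2 was at 379 and 436 against 104 and 99.5 FPKM (1.99, adjusted p 0.00012). These 4 were called higher, and their groups did not overlap.

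Some complexes held members with no call beside members that were higher. Wdr12 was at 10.9 and 11.8 against 12.7 and 8.6 FPKM and Nop56 at 118 and 122 against 108 and 101 FPKM. Ncl was at 68.1 and 74.5 against 74 and 68.4 FPKM, a difference of 0.00, and was called lower under quantile normalization (-0.79) and with equal sums (-0.69). Nol10 was at 14.8 and 17.1 against 21.5 and 21.8 FPKM, without a call (adjusted p 0.064).

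Embryos with mutant Kdm4d were compared with plain SCNT embryos in the same way. Of 51 members 2 were higher and 8 lower, 3.92% and 15.7%, against 11.3% and 6.42% of all genes, with a median of -0.31. Of the other ribosome biogenesis genes 3 of 109 were higher and 20 lower. The count of lower members is not firm: it was 18 under quantile normalization (10.4% of all genes lower), 29 with equal sums (24.1% of all genes lower) and 0 when only these 2 groups were fitted, where no gene at all was called and 6 members were lower at an unadjusted p under 0.05. Without mutant replicate 2 it was 21, and without SCNT replicate 1 it was 2. Oocyte markers summed to 2486 to 5069 FPKM in the mutant against 1004 to 1160 in plain SCNT embryos, although Zp1 and Mos were lower. Cumulus markers summed to 65.5 to 92.3 against 55.9 to 58.6 FPKM. That was mainly through Spp1 (means of 26.28 against 12.96) and Gja1 (45.06 against 35.06), while Cyp11a1, Star, Inhba, Akr1c18 and Lhcgr were lower. The 2-cell stage markers summed to 165 to 477 against 324 to 333 FPKM. The part of these markers in the result was not tested.

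Ncl was at 28 and 37 FPKM in mutant against 74 and 68.4 FPKM in plain SCNT embryos (-1.12, SE 0.15, adjusted p 0.0014). Nol10 was at 11.9 and 9.78 against 21.5 and 21.8 FPKM (-0.94, adjusted p 0.0045), and Utp14a at 12.5 and 23.9 against 44.9 and 37.3 FPKM (-1.19, adjusted p 0.021). Rrp15 was higher, at 18.4 and 21.8 against 6.61 and 8.33 FPKM (1.32, adjusted p 0.014), as was Utp18, at 27.6 and 21.5 against 14.1 and 14.4 FPKM (0.73, adjusted p 0.011). Imp3 was at 7.72 and 11.2 FPKM with the mutant, overlapping plain SCNT embryos.

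Set directly against the mutant, Kdm4d embryos had higher levels of nearly all the members. Kdm4d itself was at 8880 and 2260 FPKM in Kdm4d and 723 and 283 FPKM in mutant libraries. The form of Kdm4d and its level thus differ together and cannot be told apart. Of 51 members 45 were higher and 0 lower by limma, 88.2% and 0%, against 21.4% and 22.5% of all genes, with a median of 1.12 beside an all-gene median of -0.09. At an unadjusted p under 0.05, 46 were higher and none lower. Calls covered 23 of 25 small subunit, 14 of 17 large subunit, 3 of 4 box H/ACA, 2 of 2 box C/D and all 3 other nucleolar genes, and 85 of 109 other ribosome biogenesis genes. The 6 without a call were Wdr12, Utp18, Nol6, Nol8, Gar1 and Rrp1.

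These calls rest on a spread shared with the other, less variable groups. With only the 4 libraries fitted no gene of the table was called, and the smallest adjusted p of a member was 0.061, with 35 members higher at an unadjusted p under 0.05. With a spread estimated per group 27 members were higher, against 10.8% of all genes. Oocyte markers summed to 2486 to 5069 FPKM in the mutant and 2091 to 2802 FPKM in the Kdm4d libraries, which overlap, and 2-cell stage markers to 165 to 477 and 1874 to 3045 FPKM, which do not, and the part of these in the members' levels was not tested.

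Imp3 was at 53.8 and 70.7 FPKM with Kdm4d and 7.72 and 11.2 FPKM with the mutant (2.60, SE 0.21, adjusted p 1.4e-05). Nhp2 was at 379 and 436 against 56.7 and 112 FPKM (2.34, SE 0.25, adjusted p 5.4e-05), and Bop1 at 11.8 and 12.4 against 1.14 and 2.62 FPKM (2.23, SE 0.26, adjusted p 7.7e-05). Utp3 was at 107 and 112 against 24.1 and 25.7 FPKM (2.09), and Nop16 at 238 and 323 against 54.3 and 83.1 FPKM (2.03). The groups did not overlap in any of the 5, although mutant replicate 2 was above replicate 1 in each. Over the 46 members among the 6254 genes compared between replicates, replicate 1 was the higher for only 8 in the mutant and 7 in the Kdm4d group. The median of replicate 1 minus replicate 2 was -0.40 and -0.30 for these members on the log2 scale, against -0.04 and -0.08 for all 6254 genes. In SCNT and IVF 2-cell embryos replicate 1 was the higher for 39 and 33 of the 46.

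**Figure D4:**
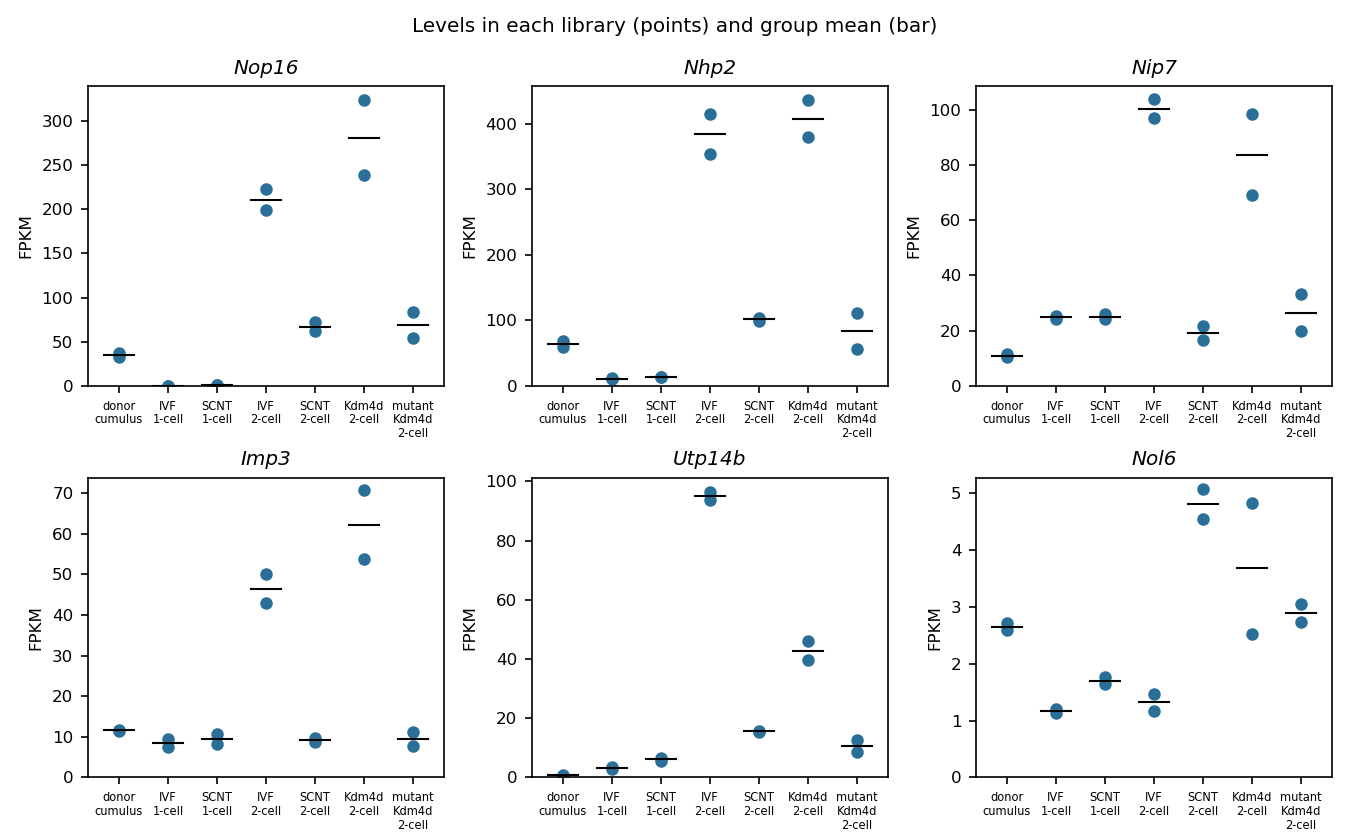
FPKM of Nop16, Nhp2, Nip7, Imp3, Utp14b and Nol6 in each library (points) with the group mean (bar), for the 7 groups, on linear axes from 0. In the first 5 panels the IVF 2-cell and Kdm4d points lie above the SCNT and mutant 2-cell points, whereas Nol6 is lowest in IVF embryos of both stages (1.14 to 1.47 FPKM).

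Kdm4d embryos were then compared with IVF 2-cell embryos. Of 51 members 7 were higher and 4 lower, 13.7% and 7.84%, against 16.6% and 3.7% of all genes, with a median of 0.08 beside an all-gene median of 0.18. For the other 40 no difference was called, which does not show that levels were equal. The balance turned with scaling, to 1 higher and 8 lower under quantile normalization (6.82% and 7.71% of all genes) and 1 and 9 with equal sums (6.98% and 7.18%), and with only these groups fitted neither direction had a call. At an unadjusted p under 0.05 that fit had 10 higher and 7 lower. Without IVF 2-cell replicate 2, 1 member was higher and 1 lower.

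Utp14b was below its IVF level, at 39.6 and 46 FPKM against 96.5 and 93.8 (-1.14, SE 0.18, adjusted p 0.0017), as did Rrs1, at 9.34 and 8.98 against 16.7 and 17.5 FPKM (-0.83, adjusted p 0.0072). Pno1 was above it, at 80 and 134 against 43.2 and 45.8 FPKM (1.20, adjusted p 0.013), and Rrp15 at 30.3 and 55.3 against 17.4 and 15.9 FPKM (1.25, adjusted p 0.015). Nol6 was higher as well, at 2.53 and 4.82 against 1.18 and 1.47 FPKM (0.97, adjusted p 0.01). The 2 Kdm4d values of Pno1, Rrp15 and Nol6 lay far apart.

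Across the 8 libraries of the 2-cell stage, all 4 IVF and Kdm4d values lay above all 4 SCNT and mutant values for 33 of the 51 members, against 14.6% of all genes tested. The reverse order held for none of the members, although it held for 2543 of the 13450 genes tested. Members without a clear order included Gar1, Wdr12, Nop56, Ncl and Tsr1.

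The comparison of SCNT with IVF embryos and that of Kdm4d with mutant embryos share no library. Of the 33 members lower in SCNT, 31 were higher with Kdm4d than with the mutant, which is 93.9% of the first list and 68.9% of the second. Over all genes tested the same shares were 74.1% and 57.4%. The exceptions were Utp18 and Nol8. Utp18 was at 33.3 and 33.1 FPKM in IVF, 14.1 and 14.4 in SCNT, 28.2 and 28.1 in Kdm4d and 27.6 and 21.5 FPKM in mutant embryos, so that the mutant, too, was above plain SCNT. Of the 18 members not lower in SCNT, 14 (77.8%) were also higher with Kdm4d, against 10.9% of all genes not lower in SCNT. Across the 51 members the differences had a Spearman's rho of -0.75, and across all 13450 genes -0.63, where the points of each axis share the same 4 libraries. Without the members of shared sequence, 28 of 30 did so.

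**Figure D5:**
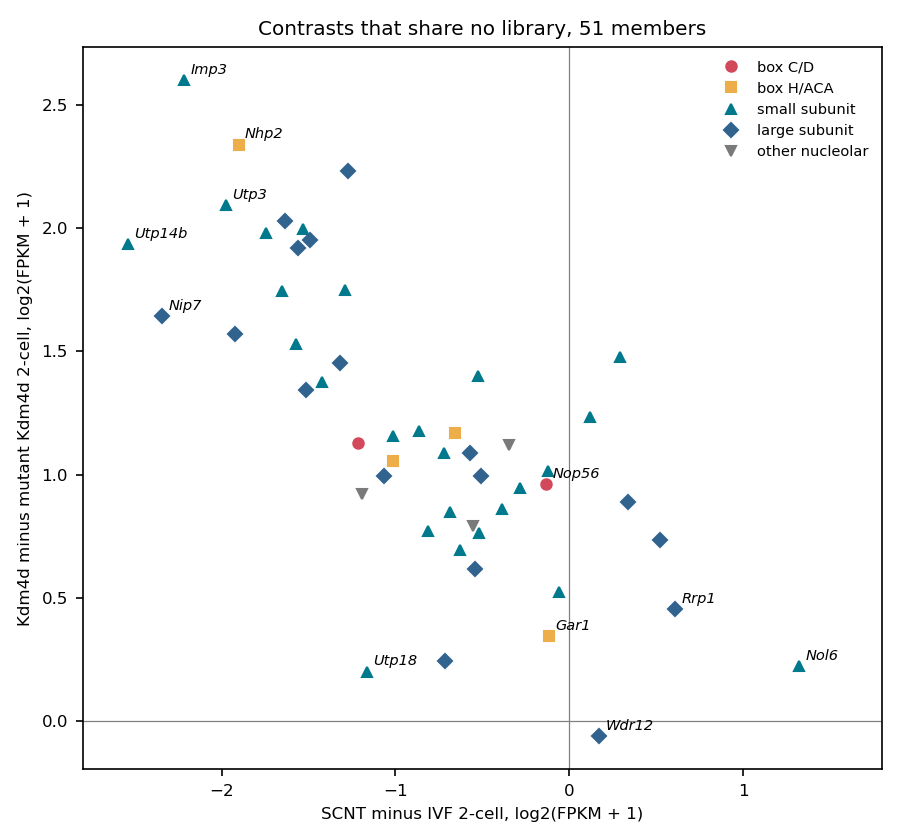
Difference of SCNT from IVF 2-cell embryos (x axis) and of Kdm4d from mutant Kdm4d embryos (y axis) in log2(FPKM + 1) for the 51 tested members, with marker shapes for roles. Members farthest to the left, such as Utp14b, Nip7 and Imp3 (-2.54, -2.34 and -2.22), are among the higher ones, Utp18 is to the left but low, and Nol6 and Wdr12 are near 0 on the y axis.

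Donor cumulus cells, the source of the nuclei, expressed a different balance of these genes from 1-cell IVF embryos. Of 51 members 18 were higher and 25 lower in the donors, 35.3% and 49%, against 42.4% and 35.5% of all genes, with a median of -0.53. Nop16 was at 37.7 and 32.4 FPKM against 0.0481 and 0.129, Rrp1 at 28.3 and 28.5 against 1.56 and 2.22, and Emg1, which methylates 18S RNA, at 116 and 99.7 against 14.3 and 13.6 FPKM (5.05, 3.36 and 2.86). Nol10 was at 3.58 and 2.38 against 40.3 and 37.9 FPKM, Bms1 at 6.53 and 7.7 against 75.2 and 85.4, and Utp18 at 5.92 and 8.05 against 74.4 and 72.4 FPKM (-3.35, -3.33 and -3.23). Differences ranged from -3.35 to 2.86 among small subunit and from -3.07 to 5.05 among large subunit genes. Both roles thus held genes of either direction.

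Levels in donors were also set beside those in SCNT embryos, without a test. Utp14b was at 0.633 and 0.746 FPKM in donors, below all embryos, and Nop10 at 175 and 170 FPKM, near its SCNT 2-cell values of 159 and 148 FPKM. Rrp1 was higher in donors than in any embryo library. Nhp2, at 67.9 and 60 FPKM in donors, lay between its SCNT 1-cell and SCNT 2-cell values.

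RefSeq promoter windows (250 bases before to 50 after the start) matched 43 of the 52 members, with 49 windows. CACGTG lay in 22.4% of these windows and in 7.15% of all 32851 windows of that length, CCGGAAG in 32.7% and 8.86%, and the core motif of NRF1, searched the same way, in 2.04% and 0.971%. The median GC content was 59.3% in the members' windows and 52.7% in all, so base composition differs as well. Of the 28 matched members lower in SCNT than in IVF 2-cell embryos, 10 had CACGTG and 11 CCGGAAG, and 19 had at least one of these. Of the 15 others 1 had CACGTG, 4 CCGGAAG and 4 at least one. The split by call was not made over all genes, so these counts have no background, and a link to the calls was not tested. Imp3, with one of the largest differences, had neither in the stretch shown, and Rrp1, which was higher in SCNT, had neither. These are matches of letters, and binding was not measured.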

How the data were processed

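Per the labels' protocols, embryos or cells were lysed into SMARTer Ultra Low Input cDNA synthesis, and NEBNext libraries were read from a single end over 50 bases on an Illumina HiSeq. The deposited table holds FPKM, which the authors made with Novoalign and Cufflinks 2.0.2 on mm9, per the submitters' processing notes; annotation, filters and the treatment of multiply mapping reads are not given in these sources. FPKM starts in the table count from 0 (of 20482 symbols, 8694 spans equalled the RefSeq length as end minus start and 527 with 1 added), so 1 was added to starts.

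From these values, 799 short RNA rows were left out by name, 640 rows that share a symbol were summed, and a gene was tested if 2 or more libraries had it at 1 FPKM or above (13450 genes). limma 3.58.1 in R 4.3.3 fitted log2(FPKM + 1) with an intensity trend to 7 group means over all 14 libraries (7 residual and a median of 4.72 prior degrees of freedom), with Benjamini-Hochberg adjustment over all tested genes within each comparison and a threshold of 0.05. A pseudocount of 1 understates changes of genes near 0. Scripts were tested on simulated data. Relative depth was read from the value of a single read in each library, since FPKM gives no counts. Shared letters were counted over 50-base stretches, 10 bases apart, against GENCODE M21 transcripts, and motifs in RefSeq promoter windows. In the comparison of SCNT with IVF 2-cell embryos every tested member is named, and in the flagged list of stage changes every called member. Elsewhere, genes named are among the called members with the 6 largest rises and the 6 largest falls, the snoRNP and PeBoW proteins, Ncl, Npm1 and Fbl. A few others (Rrp8, Tsr1, Nol8, Rrp1b, and members cited across comparisons) were chosen after their values were seen. The members and lists were chosen with earlier results of these data known. The labels do not pair replicates. Alternatives were a pseudocount of 0.1, no filter, quantile normalization, group weights, fits to the compared groups, each library left out, and a replicate block. Equal FPKM sums, members of shared sequence left out and a crossed block were added after seeing the data.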

Additional observations from a re-analysis of the deposited data

Results flagged for a closer look

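Between SCNT and IVF embryos the change from the 1-cell to the 2-cell stage differed, by the interaction in limma, for 28 members, given here as the SCNT change minus the IVF change on the log2(FPKM + 1) scale. In the box H/ACA particles the difference was -2.23 for Nhp2 and -0.72 for Nop10. Among small subunit factors the difference was -3.32 for Utp14b, -2.34 for Imp3, -2.33 for Imp4, -2.18 for Utp3, -2.08 for Utp23 and -1.84 for Rrp9. It was -1.83 for Pno1, -1.81 for Rrp7a, -1.56 for Nol11, -1.38 for Utp11l, -1.20 for Wdr43 and -1.15 for Utp18 in further members of that role. It was -0.79 for Emg1 and -0.78 for Bms1 in further members of that role. Among large subunit factors the difference was -2.53 for Nop16, -2.46 for Nop2, -2.36 for Nip7, -1.84 for Rrs1, -1.68 for Rrp15 and -1.49 for Bop1. It was -1.47 for Nol12, -1.42 for Ebna1bp2, -1.03 for Nol9 and -0.75 for Pes1 in further members of that role. Of the other nucleolar proteins the difference was -1.80 for Rrp8. Nol6 alone had a positive difference, 1.01, and that call was lost when any single library of these groups was left out. Values of Rrp7a and Pes1 are uncertain because they share sequence with other genes.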

How the results depend on the processing

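Counts of members are given as higher and lower. Between SCNT and IVF 1-cell embryos, 3 and 1 became 7 higher with a pseudocount of 0.1 FPKM, 0 lower with no filter on low values, 0 and 0 under quantile normalization (13 unadjusted p under 0.05) and with equal FPKM sums (14), 16 and 10 with group weights, 9 and 10 with only the compared groups fitted, and 0 lower with the replicate block. Between SCNT and IVF 2-cell embryos the 2 higher became 4 under quantile normalization, 4 with the compared groups and 5 with equal sums. For Kdm4d against SCNT, quantile normalization gave 5 lower and equal sums 16 and 7. For the mutant against SCNT, 2 and 8 became 5 lower with no filter, 18 lower under quantile normalization, 0 and 2 with group weights, 0 and 0 with the compared groups, 1 and 29 with equal sums, and 5 lower without shared members. For Kdm4d against the mutant, 45 higher became 27 with group weights and 0 with the compared groups (35 unadjusted). For Kdm4d against IVF, 7 and 4 became 1 and 8 under quantile normalization, 1 and 2 with group weights, 0 and 0 with the compared groups and 1 and 9 with equal sums. Group weights gave 2 members above in the difference of stage changes, and equal sums gave 2 lower in the IVF and 3 lower in the SCNT stage change.

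Leaving out each library gave 0 and 0 between 1-cell embryos; 1 and 27 to 30 between SCNT and IVF 2-cell embryos; 0 and 21 to 23 for the difference of stage changes; 32 to 35 and 4 to 5 for the IVF and 24 to 29 and 7 to 10 for the SCNT stage change. It gave 27 to 36 and 0 to 1 for Kdm4d against SCNT, 0 to 3 and 2 to 21 for the mutant against SCNT, 35 to 46 and 0 for Kdm4d against the mutant, 1 to 9 and 1 to 5 for Kdm4d against IVF, and 15 to 17 and 19 to 23 for donors. A group left with 1 library is assumed to vary like the others.

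Reversed members, by quantile normalization, were Brix1 in the IVF stage change (0.048), Npm1 in the SCNT stage change (0.27) and between SCNT and IVF 2-cell embryos (0.13), and Ncl for Kdm4d against SCNT (-0.79), and by equal sums Pes1 in the SCNT stage change (0.26) and Ncl for Kdm4d against SCNT (-0.69). The cause was not tested.

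Same-numbered replicates correlated by -0.155 to 0.191, and the replicate block changed no other count by over 1.5 times. The crossed block left 31 and 0, and 2 and 8. Of the values of single members under the alternatives, 1997 kept a call with its direction, or stayed without a call whatever their sign. A call was lost by 230 and gained by 36, and 6 reversed. Reversals were counted only where the main fit or the alternative had a call, so uncalled members that changed sign are not among them. Depth in counts is unknown, which limits low genes such as Fbl.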
